A study of Sus scrofa with 18 samples.

Results

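The muscle examined was the gastrocnemius, a calf muscle, of the 6 pigs of group CON, which received the diet with soybean extraction meal and without insect meal. Their 6 arrays, of 18 in the series, were selected by their titles as muscle control samples 1 to 6, and are called pigs 1 to 6 below. All pigs of the study were male crossbreds of Piétrain with German Landrace and German Edelschwein, 5 weeks old at the start, fed for 4 weeks and killed on day 29 in the fed state. The other 12 arrays came from groups IM5 and IM10, whose diets held 5 or 10% insect meal and so had 50 or 100% less soybean extraction meal, and they served here only for the spread between pigs within each group. Of 25388 probe sets on the array, 13327 carried exactly 1 gene name and were kept, 357 carried several and 11704 carried none. The kept probe sets stood for 12365 genes, of which 902 had several probe sets.

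Skeletal muscle fibres are long multinucleated cells filled with sarcomeres, in which myosin pulls on actin when calcium is released from the sarcoplasmic reticulum. Fast-twitch fibres draw mainly on glycogen and glycolysis, whereas slow-twitch fibres carry other isoforms of the contractile proteins and rely more on mitochondria. The gastrocnemius of mammals is a mixed muscle, and the share of slow fibres differs between its deep and superficial portions. A muscle sample also holds vessels, fibroblasts, fat cells, nerve and immune cells, and the array measures the RNA of all of them together.

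The deposited values are log2 expression values, so that a difference of 1 is a doubling of signal. They are array signals: a probe set reads its own gene with its own affinity, and a rank among probe sets is a rank of signal and not of the number of transcript molecules. Over the 6 control pigs the mean log2 values of the 13327 probe sets ran from 1.12 to 13.26, with quartiles at 4.01, 5.21 and 6.43. The top 10.0% of probe sets (1335) began at 7.66 and the top 1.01% (134) at 10.26. The arrays were alike, with medians from 4.91 to 5.0 and correlations between pairs of control pigs from 0.983 to 0.991. A background level was set at 4.939, below which lay 90% of 50 probe sets for genes of other organs, such as ALB, the albumin of liver, at 3.39. Above this level were 7490 probe sets, or 56.2%, and 5837 were not. Of the genes of other organs, LHB, SAG, GH1 and both probe sets of GAST lay above it, with 6.13 for LHB as the highest.

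The brightest signals came from fast contraction, from glycogen and glucose use and from the mitochondrial genome. COX1, the catalytic subunit of cytochrome c oxidase encoded in mitochondrial DNA, had the highest mean log2 value of all, 13.26 ± 0.017 (SD, n = 6). GAPDH of glycolysis followed with 13.19 ± 0.019, and SLN, sarcolipin, a small inhibitor of the calcium pump, with 13.16 ± 0.04. All 20 probe sets with the highest means lay at 12.47 or above, and their SDs ran from 0.017 to 0.14.

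All 12 probe sets of the fast-fibre list were in the top 1% of signal. They included MYH1, a fast myosin heavy chain, at 12.88 ± 0.08, MYLPF, the fast regulatory light chain, at 12.81 ± 0.06, TNNC2, the calcium sensor of fast troponin, at 12.68 ± 0.06, and ATP2A1, the fast calcium pump, at 12.72 ± 0.07. ACTN3, the fast-fibre alpha-actinin of the Z-disc, read 11.65 ± 0.18 on a pair of probe sets with identical values. PVALB, parvalbumin, a calcium buffer, varied most among the fast genes, from 11.11 in pig 6 to 11.86 in pig 2. The slow-fibre list was bright as well, but less evenly, with 8 of 13 probe sets in the top 10% and 5 in the top 1%. Of the further fast genes listed, MYH2, MYH4, TNNT3 and TNNI2, and of the slow genes, TNNT1, TNNI1 and ATP2A2, were not analysed here.

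Structural genes and some of the triad genes shared this range of signal. The sarcomere scaffold had 16 of 17 probe sets in the top 10%, led by NEB, nebulin, the ruler of the thin filament, at 12.84 ± 0.027, TPM2, a tropomyosin, at 12.22 ± 0.11, and ACTA1, skeletal actin, at 12.08 ± 0.06. ACTC1, the actin of heart and fetal skeletal muscle, was also bright, at 11.93 ± 0.33 and 11.83 ± 0.33 on its probe sets. In pig 3 these read 11.33 and 11.25, their lowest values, while ACTA1 read 12.1. Whether the short probes for ACTC1 also read ACTA1 was not tested. The list for calcium release and uptake had 7 of 11 probe sets in the top 10% and 4 in the top 1%, with a median of 8.70. In it, RYR1, the release channel, read 11.20 ± 0.16 and 10.75 ± 0.14, and ASPH was the dimmest, at 6.26 ± 0.11. CASQ1, the calcium store of the reticulum, read 12.86 ± 0.06 and was counted in the fast-fibre list. MYL4, a light chain of atrial and fetal muscle, was not above background, at 4.24 ± 0.07.

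Glycolysis had 8 of 16 probe sets in the top 1%. LDHA, which makes lactate, was at 12.81 ± 0.07, ENO3, the muscle enolase, at 12.60 ± 0.13, PKM, pyruvate kinase, at 12.47 ± 0.14, TPI1 at 12.14 ± 0.14 and GPI at 12.14 ± 0.15. The hexokinases were much dimmer on their own probe sets, with HK2 at 6.45 ± 0.29 and HK1 at 6.36 ± 0.19. In the glycogen list, 10 of 14 probe sets were in the top 10%. PYGM, the glycogen phosphorylase of muscle, stood at 12.93 ± 0.07, and PGM1, which interconverts glucose phosphates, at 11.78 ± 0.23. GYS1, the glycogen synthase of muscle, read 10.48 ± 0.13. Enzymes that restore adenosine triphosphate from other phosphates formed another bright group, with 9 of 10 probe sets in the top 10%, among them 3 for AMPD1, the adenylate deaminase of muscle, the dimmest of them at 11.61 ± 0.19, and AK1, adenylate kinase, at 11.08 ± 0.20. Creatine kinase of the cytosol, CKM, was not analysed here.

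Mitochondrial genes were bright, most of all those of the mitochondrial genome. Of 9 probe sets for subunits encoded in mitochondrial DNA, 7 were in the top 1%, including ND5 at 13.10 ± 0.037, CYTB at 12.80 ± 0.04, ND1 at 12.73 ± 0.05 and ND3 at 12.59 ± 0.06. ND2, at 9.49 ± 0.22, was in the top 10% but not in the top 1%, and ND6 was in neither, at 6.30 ± 0.23. Respiratory chain subunits encoded in the nucleus had 18 of 26 probe sets in the top 10% and 3 in the top 1%, led by ATP5B, the catalytic subunit of ATP synthase, at 11.29 ± 0.13. The citric acid cycle had 12 of 15 in the top 10%, with CS, citrate synthase, at 10.32 ± 0.12. Fatty acid oxidation had 8 of 18, with CD36, the fatty acid transporter, at 10.57 ± 0.10.

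Genes of general cell functions were bright as well. Ribosomal protein genes had 21 of 34 probe sets in the top 10%, from RPS12 at 11.84 ± 0.13 down to RPS6 at 2.79 ± 0.37, although their products enter the ribosome in equal numbers. Translation factors had 14 of 17, with EIF4G2 at 11.50 ± 0.10 and EEF1A1 at 11.49 ± 0.10. Chaperones had 17 of 22, with HSPA8, the constitutive heat shock protein, at 11.74 ± 0.09, and HSPB1 and HSPB6, small heat shock proteins abundant in muscle, at 11.26 ± 0.28 and 11.02 ± 0.21. Proteasome subunits had 12 of 19 and none in the top 1%.

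Cells other than fibres were seen to different extents. Genes of the extracellular matrix, made by fibroblasts, had 23 of 30 probe sets in the top 10%, with COL1A1, a chain of collagen, at 11.83 ± 0.29, LUM, lumican, at 11.67 ± 0.08, and DCN, decorin, at 11.25 ± 0.14. Vessel genes had 19 of 20 above background, with PECAM1 of the endothelium at 8.48 ± 0.15 and ACTA2 of smooth muscle at 8.20 ± 0.22. Macrophage genes had 13 of 22 above background, a share near the 56.2% of all probe sets, led by the complement genes C1QB at 8.63 ± 0.55 and C1QA at 8.22 ± 0.46, while the neutrophil and monocyte genes S100A8 and S100A9 were at 2.94 ± 0.20 and 2.77 ± 0.10. Lymphocyte genes had 6 of 21 above background, with CD3E of T cells at 5.22 ± 0.31. Red blood cell genes were near absent from the signal: 1 of 9 was above background, and HBB, a globin, read 3.62 ± 0.34. Myelin genes were dim too, with 4 of 9 above background and MAG at 4.18 ± 0.13.

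Several marker genes of these cell types, among them ADIPOQ, CD163, CDH5 and PAX7, were not analysed here. Of the fat cell genes that were, PLIN1, which coats lipid droplets, read 6.05 ± 0.30, and LEP, leptin, 3.02 ± 0.15. The list of satellite cell genes and myogenic factors had 16 of 18 probe sets above background, against 56.2% of all kept probe sets. In it, MYOG read 7.87 ± 0.18 and MYOD1 6.22 ± 0.50. The postnatal factor MYF6 read 4.69 ± 0.18, below the background level, although mature fibres are known to express it. Of the genes that give the limb its position, TBX15 was in the top 10%, at 9.67 ± 0.22, and HOXA10 read 6.97 ± 0.21.

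A probe set named SLC2A2 was the sixth brightest, at 12.93 ± 0.037, with 12.86 in the lowest pig and 12.97 in the highest. SLC2A2 is the glucose transporter of liver and pancreatic beta cells, and the transporter known for muscle is SLC2A4, which read 7.92 ± 0.15. Other genes of liver were dim: ALB read 3.39 ± 0.15, FGA 2.44 ± 0.07 and FGB 2.78 ± 0.14. In the numbering of the array its identifier, 15332937, directly precedes that of ND1, 15332941, among the kept probe sets, followed by ND2 and COX1, all encoded in mitochondrial DNA. Whether this probe set measures SLC2A2 was not tested.

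**Figure D1:**
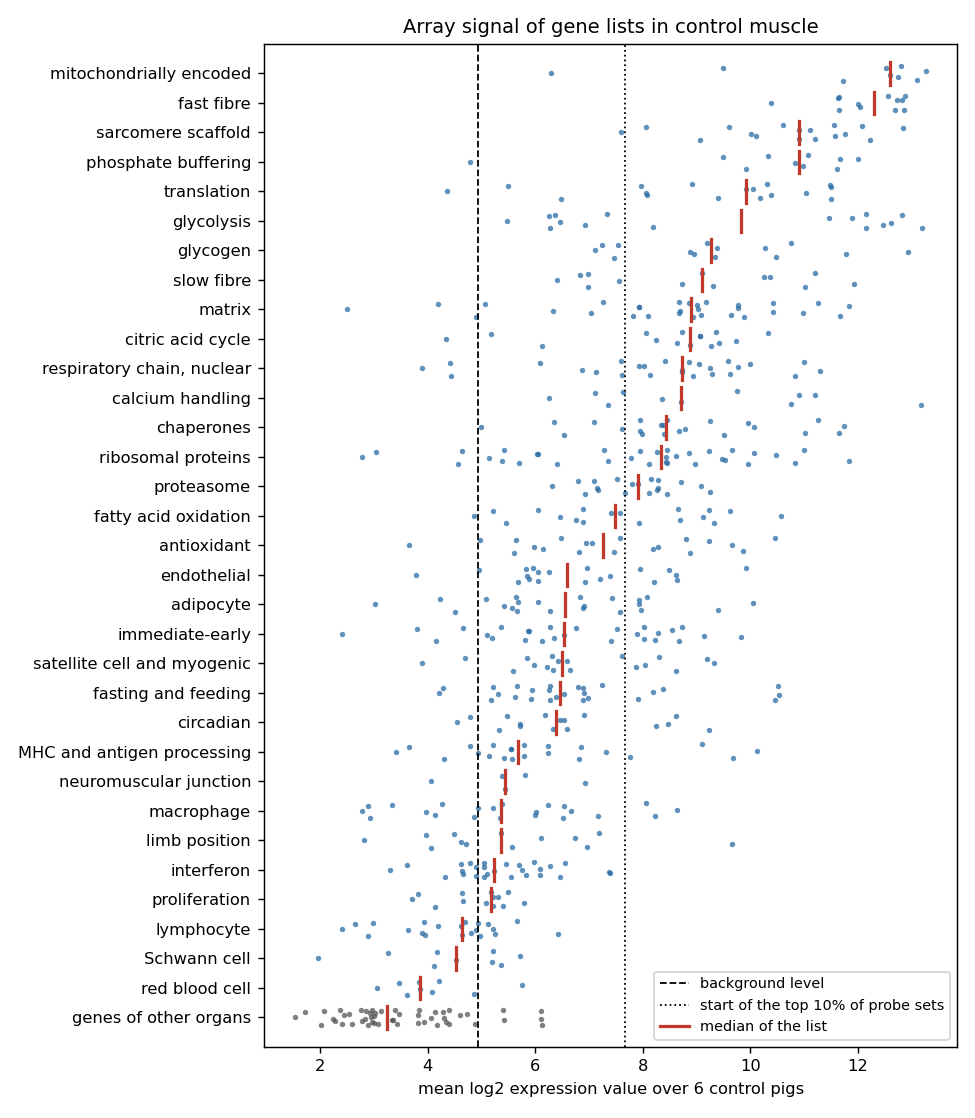
Mean log2 expression value over the 6 control pigs (horizontal axis) of every probe set in each gene list (rows), with the median of each list as a red bar, the background level of 4.939 as a dashed line and the start of the top 10% of probe sets, 7.66, as a dotted line. Mitochondrially encoded and fast-fibre genes had the highest medians, at 12.59 and 12.29, and red blood cell genes (3.86) lay next to the genes of other organs (3.24).

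The pigs, which shared breed, sex, age and diet, differed little in most genes. Among the 7490 probe sets above background, the median SD over the 6 pigs was 0.16 log2 units, with 5% of probe sets below 0.07 and 5% above 0.342. An SD above 0.5 was found for 105 probe sets of 99 genes, or 1.4%, and an SD above 1 for 11. The median spread was smaller at high signal: the median SD was 0.195 in the dimmest 10% of all 13327 probe sets, 0.151 in the brightest 10% and 0.134 in the top 1%. SDs above 0.5 were not rarer there, with 1.575% of the dimmest 10%, 1.8% of the brightest 10% and 2.985% of the top 1%. The 20 brightest probe sets all had SDs below 0.16, from 0.017 to 0.143. In the top 1%, 4 probe sets had an SD above 0.5, and these were MYL2, MYL3, MYH7 and MYOZ2, all slow-fibre genes. With the probe sets at or below background included, 188 exceeded 0.5.

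The largest spread was that of the slow-fibre programme. Of its 13 probe sets, 12 had an SD above 0.5, against 1.4% of all probe sets above background, and their median SD was 0.94. MYL3, the slow essential light chain of myosin, had the largest SD of all (10.26 ± 1.40, n = 6), and read 11.76, 7.95, 10.88, 10.12, 9.5 and 11.34 in pigs 1 to 6. The highest signal was 14.03 times the lowest. MYH7, the slow myosin heavy chain, read 11.58, 8.59, 10.79, 10.26, 9.44 and 11.56, a range of 7.94-fold. In both genes pigs 1 and 6 were the highest, pig 3 followed, and pig 2 was by far the lowest.

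MYL2, the slow regulatory light chain, read 12.33, 9.38, 11.6, 11.08, 10.62 and 12.24 in the same order of pigs, and so reached in pig 1 a signal in the range of the fast genes. TNNC1, troponin C of slow and heart muscle, ran from 6.68 in pig 2 to 10.35 in pig 6, with a median of 8.83. PLN, phospholamban, which restrains the slow calcium pump, ran from 5.76 in pig 2 to 9.14 in pig 1, 10.4-fold, and was the only probe set of 11 in the calcium list with an SD above 0.5. The descending order of pigs 1, 6, 3, 4, 5 and 2 was the same in MYL3, MYH7, MYL2, PLN, TPM3, a slow tropomyosin, and both probe sets of MYOZ2, a Z-disc protein of slow fibres. MYH7B, a slow-type myosin of heart and muscle that was not in the list, had this order too, from 4.77 to 6.51.

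Other members of the slow list followed the order in part. MYL6B, a slow essential light chain, ran from 5.78 in pig 2 to 8.63 in pig 1 on the wider of its probe sets. CASQ2, the calsequestrin of heart and slow muscle, separated pig 1, at 8.23, from the others, which lay between 6.36 and 6.71. CSRP3, a Z-disc stretch sensor, read 9.85 in pig 1 and 9.74 in pig 5, against 8.66 in both pig 2 and pig 4. MYBPC1, the slow-type myosin-binding protein C, was the member that did not share the spread, at 11.93 ± 0.13, with pigs from 11.76 to 12.06.

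The fast-fibre list varied far less. None of its 12 probe sets had an SD above 0.5, and its median SD was 0.094. Its median level was 12.29, near the highest mean of 13.26, against 9.09 for the slow list. Whether the higher signal of the fast list narrowed its spread was not tested. The median deviation of the list from the mean of the 6 pigs was 0.12 in pig 2 and -0.12 in both pig 1 and pig 6, so that the pigs at the ends of the slow list were at the opposite ends of the fast list, over a far narrower range. For the slow list these deviations were 1.12 in pig 1, 0.70 in pig 6, 0.21 in pig 3, -0.18 in pig 4, -0.59 in pig 5 and -1.21 in pig 2, a range of 2.33. In a sample of whole muscle, fewer slow fibres and less RNA per slow fibre cannot be told apart, and the portion of the muscle from which each aliquot was cut is not given. Leaving out any pig in turn left 10 to 12 of the 13 slow probe sets above an SD of 0.5.

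**Figure D2:**
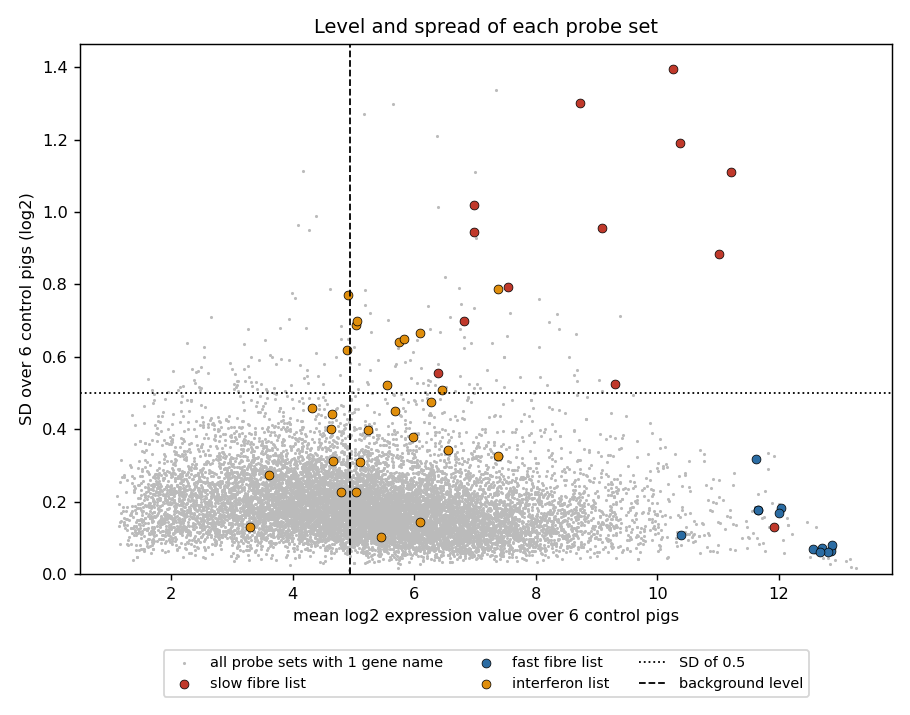
Each point is a probe set, placed by its mean log2 value over the 6 control pigs (horizontal axis) and its SD over them (vertical axis, log2 units), with slow-fibre genes in red, fast-fibre genes in blue and interferon-stimulated genes in orange. The fast genes lie at the lower right, with high signal and SDs up to 0.32, while 12 of 13 slow probe sets lie above the line at 0.5.

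Metabolic genes followed the order of the fibre genes in part, over ranges narrower than that of the slow list. As median deviations from the mean of the 6 pigs, the glycogen list was highest in pig 2 (0.23) and lowest in pig 6 (-0.31). The glycolysis list was likewise (0.16 and -0.22), and pig 1 was next lowest in both (-0.11 and -0.08). The range of the glycogen list was 0.54, against 0.24 for the fast list and 2.33 for the slow list. PHKA1, a regulatory subunit of phosphorylase kinase, ran from 10.28 in pig 6 to 11.12 in pig 2. In neither list did any probe set exceed an SD of 0.5. The nuclear-encoded respiratory chain was highest in pig 1 (0.18), followed by pig 6 (0.11), and lowest in pig 3 (-0.17). Fat oxidation was also highest in pigs 1 (0.22) and 6 (0.07), and lowest in pig 4 (-0.11). The citric acid cycle was highest in pig 1 (0.24). In pig 6 the citric acid cycle list deviated by -0.05. COQ8A and UQCR10, outside the lists, were picked because they were high in pigs 1 and 6. COQ8A, which serves the making of coenzyme Q, ran from 7.61 in pig 2 to 9.02 in pig 6 and 9.22 in pig 1. UQCR10, a subunit of the cytochrome bc complex, read 9.6 in pig 1 and 8.99 in pig 6, and 8.12 to 8.48 in the other pigs.

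A few genes had the inverse pattern. MSS51, a factor known from mouse as a muscle gene that restrains oxidative metabolism, read 5.95, 8.75, 7.78, 7.15, 6.32 and 6.05 in pigs 1 to 6 (SD 1.11). IRS1, which links the insulin receptor to its signalling, read 7.58 in pig 1 and 7.73 in pig 6 but 9.4 in pig 2. MYLK4, a kinase of the myosin light chain kinase family, read 6.78 in pig 1 and 6.64 in pig 6, and 7.73 to 8.0 in the other pigs, on a pair of probe sets with identical values. Of the 105 probe sets, pigs 1 and 6 lay above all 4 other pigs in 39 (37.1%), 9 of them in the slow-fibre list, and below all of them in 12 (11.4%). Over all probe sets above background these shares were 9.8% and 9.3%. This pair of pigs was singled out after the values had been seen. By itself pig 1 had the highest value in 53 of the 105 (50.5%, against 24.3% of all probe sets above background), and pig 2 the lowest in 36 (34.3%, against 14.2%).

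**Figure D3:**
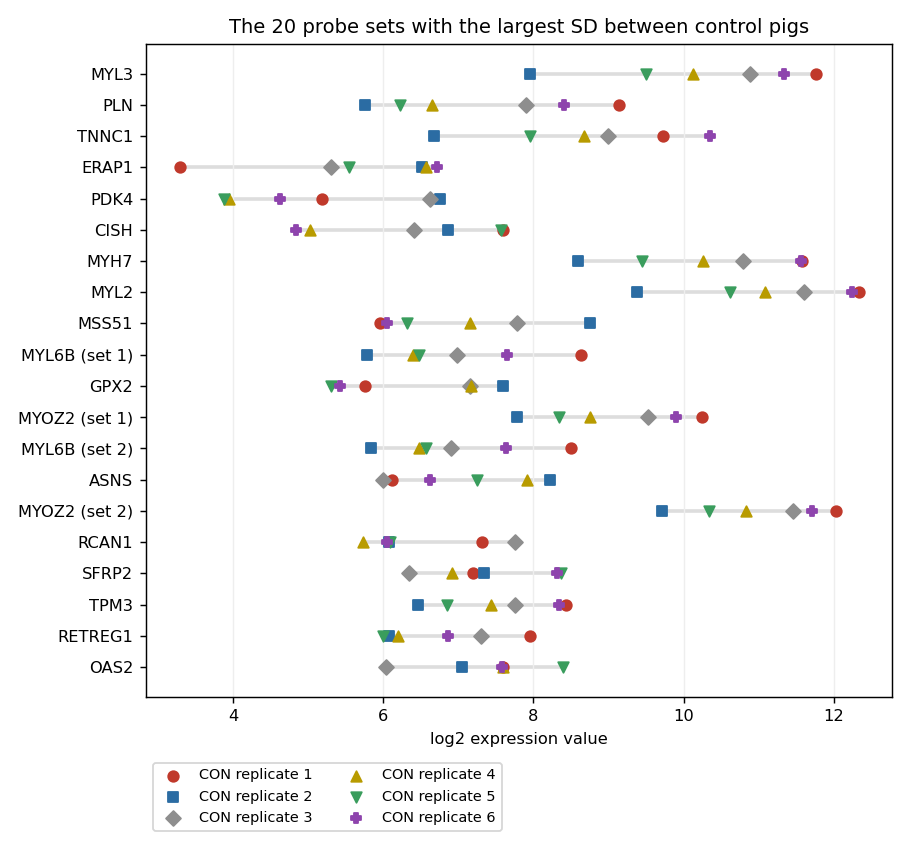
Log2 expression values (horizontal axis) of the 6 control pigs, each with its own colour and marker, in the 20 probe sets with the largest SD above background, ordered by SD from MYL3 (1.40) at the top to OAS2 (0.79) at the bottom. Pig 2 (blue squares) is lowest and pigs 1 and 6 are highest in the slow-fibre genes, while ERAP1, PDK4, CISH, GPX2, ASNS and RCAN1 order the pigs differently.

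The remaining genes of large spread had other roles and other orders of pigs. ERAP1, a peptidase that trims peptides for antigen presentation, read 3.29 in pig 1, 5.3 and 5.55 in pigs 3 and 5, and 6.51 to 6.72 in the rest (SD 1.30), so that pig 1 lay below the background level. PDK4, the kinase that shuts off pyruvate oxidation and is known to rise in fasting, read 5.19, 6.76, 6.62, 3.95, 3.88 and 4.63, with pigs 2 and 3 far above pigs 4 and 5. The value in 3 of the 6 pigs was thus below background. FBXO32, a ubiquitin ligase of muscle wasting and a target of the same fasting signals, ran from 5.55 in pig 6 to 7.07 in pig 2 and 6.95 in pig 3. Of the 24 probe sets above background for fasting and feeding, PDK4, IRS1 and FBXO32 were those with an SD above 0.5. The share over all probe sets above background was 1.4%. The glucose transporter SLC2A4 and the fasting regulator FOXO1, at 5.63 ± 0.041, varied little.

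CISH, an inhibitor of cytokine and growth hormone signals that is induced by them, read 7.59 in pig 1 and 7.57 in pig 5, and 5.03 and 4.84 in pigs 4 and 6 (SD 1.21). GPX2, a glutathione peroxidase known from the gut, formed a group of pigs 2, 3 and 4, from 7.15 to 7.59, and a group of pigs 1, 5 and 6, from 5.31 to 5.76. RCAN1, an inhibitor of calcineurin induced by calcium signals, was high in pigs 1 and 3, at 7.32 and 7.75, and lay between 5.73 and 6.09 in the others. The chaperone HSPH1 was high in these same pigs, at 7.78 and 7.67, and lay between 6.53 and 6.94 in the others.

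ASNS and PSAT1, which make amino acids, were picked after their values were seen. ASNS, asparagine synthetase, a target of the cellular response to amino acid shortage, read 6.12, 8.22, 6.0, 7.92, 7.25 and 6.62 in pigs 1 to 6. PSAT1, of serine synthesis, read 5.78, 6.83, 5.7, 6.49, 7.26 and 5.35. In both genes pigs 2, 4 and 5 were above pigs 1, 3 and 6.

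Fat synthesis differed between pigs as well. SCD, which desaturates fatty acids, read 9.83, 8.16, 9.09, 9.31, 10.12 and 9.84 in pigs 1 to 6, and ACLY, which supplies acetyl units for fat synthesis, 8.05, 6.31, 7.19, 7.71, 8.2 and 8.03. Of the 19 probe sets above background in the adipocyte and fat synthesis list, these 2 had an SD above 0.5. The share over all probe sets above background was 1.4%. Just under 0.5 were DGAT2, the last step of triglyceride synthesis, from 7.16 to 8.52, and THRSP, a nuclear factor of lipogenesis, from 7.14 to 8.39. Pig 2 was the lowest in these 4 genes, and pigs 1, 5 and 6 were the highest. GPD1, which makes the glycerol backbone of fat and was the brightest of the list, was highest in pig 2, at 10.26. It was lowest in pigs 1 and 6, at 9.66 and 9.92. Pig 5, high in those 4 genes, was high in GPD1 too, at 10.21. PLIN1, which marks fat cells, was lowest in pig 2, at 5.53, and highest in pig 5, at 6.32. ADIPOQ and FABP4 were not analysed here. The part of fat cells in these values was not tested. Without pig 2 none of those above background exceeded an SD of 0.5, and without pig 1, pig 3 or pig 4, 5 did.

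Immune genes were another group with large spread. Of 27 interferon-stimulated probe sets, 18 were above background, against 56.2% of all kept probe sets, and none was in the top 10%. Of these 18, 8 had an SD above 0.5, against 1.4% of all probe sets above background. MX2, an antiviral guanosine triphosphatase, read 7.12, 5.51, 5.24, 6.18, 6.12 and 6.38 in pigs 1 to 6, and RSAD2, an antiviral enzyme, 7.02, 5.32, 5.23, 6.02, 5.72 and 5.71. IFIT1, which binds foreign RNA, ran from 5.78 in pig 3 to 7.2 in pig 1. Pig 1 was the highest and pig 3 the lowest in each of these genes, which are shown for this order. Others of the 8 differed. OAS2, which senses double-stranded RNA, was highest in pig 5, at 8.4, and lowest in pig 3, at 6.03. OAS1, of the same family, was highest in pig 6, at 6.06, and lowest in pig 2, at 3.97, and CXCL10, a chemokine, was highest in pig 4, at 6.11. The median deviation of the list was 0.45 in pig 1 and -0.56 in pig 3. Without pig 1, 3 probe sets of the list above background exceeded 0.5, and without any other pig 6 to 10 did.

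Among macrophage and antigen presentation genes, the median deviation of each list was highest in pig 6 and lowest in pig 2, although single members differed: CTSS, a lysosomal protease, was highest in pig 1, at 7.44, and SLA-3, a class I antigen presentation molecule, in pig 5, at 8.31. C1QC read 8.7, 7.18, 7.58, 7.96, 8.1 and 8.8 in pigs 1 to 6, and FCER1G, a signalling chain of immune receptors, 7.03, 6.27, 5.92, 6.14, 6.54 and 7.23. SLA-DRA, a class II antigen presentation molecule, ran from 8.56 in pig 3 to 9.67 in pig 6. GNLY, granulysin of cytotoxic lymphocytes, was in no list and was picked after its values were seen. It ran from 6.07 in pig 2 to 8.1 in pig 6, and its SDs in groups IM5 and IM10 were 0.26 and 0.32. The median deviation of the macrophage list ran from -0.49 in pig 2 to 0.44 in pig 6, that of the antigen presentation list from -0.34 in pig 2 to 0.43 in pig 6, and that of the lymphocyte list from -0.34 in pig 2 to 0.43 in pig 6. Of the 13 macrophage probe sets above background, 4 had an SD above 0.5, but 2 did without pig 2 and 1 without pig 6. Of the 17 antigen presentation probe sets above background 1 did, and 0 without pig 2, pig 3 or pig 6. Of all probe sets above background, 1.4% had an SD above 0.5 over the 6 pigs. The part of immune cell numbers in the spread of the interferon-stimulated genes was not tested. The 1 red blood cell gene above background, SLC25A37, was lowest in pig 6, at 5.59, and HBB was below background in every pig, with 3.3 in pig 4 as the lowest value and 4.22 in pig 6 as the highest.

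Genes that respond within minutes to stimulation were above background in 23 of 27 probe sets, against 56.2% of all kept probe sets. Of these 23, 5 had an SD above 0.5, against 1.4% of all probe sets above background. ATF3, a stress-induced transcription factor, read 7.94, 9.03, 9.01, 8.18, 7.23 and 7.94 in pigs 1 to 6, and NR4A3, an exercise-responsive nuclear receptor, 4.88, 5.49, 6.66, 4.71, 4.57 and 4.84. DUSP1, a phosphatase of the same response, had pig 1 as its highest at 9.39 and pigs 2 and 3 as its lowest, at 7.92 and 7.79. ATF3 and DUSP1 thus put pigs 2 and 3 at opposite ends. CTGF, a matrix-inducing growth factor, and CCL2, a chemokine that draws monocytes, were highest in pigs 1 and 6 and are also genes of tissue remodelling and inflammation. JUN (8.73 ± 0.32), FOS (6.12 ± 0.48) and EGR1 (6.28 ± 0.23) stayed under 0.5. BTG2, an antiproliferative gene of this list, was at 9.82 ± 0.27, with pig 6 the highest at 10.31.

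**Figure D4:**
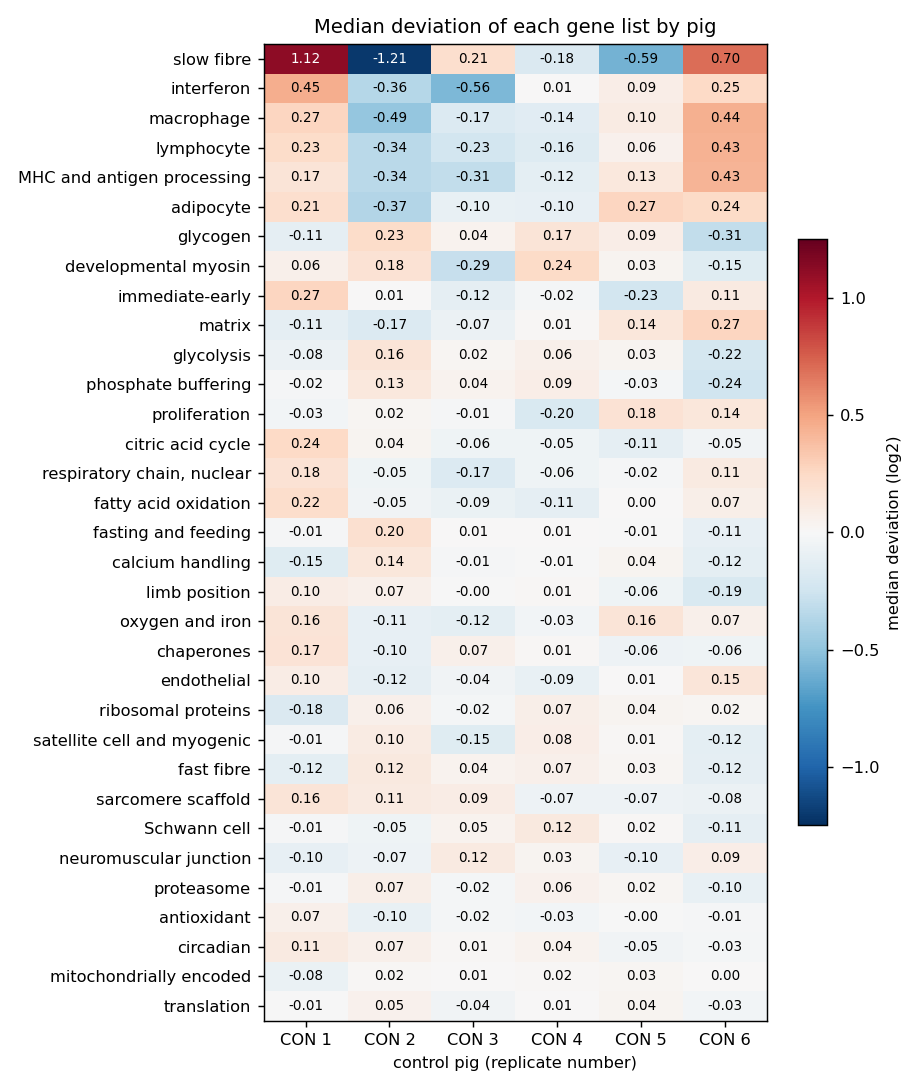
Median deviation from the mean of the 6 control pigs (log2 units, colour and number) over the members of each gene list above background (rows), for each pig (columns), with lists ordered by their range. The slow-fibre list runs from -1.21 in pig 2 to 1.12 in pig 1, the immune lists are lowest in pig 2 or pig 3 and highest in pig 1 or pig 6, and lists of translation, mitochondrially encoded and circadian genes stay between -0.08 and 0.11.

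Matrix genes differed in a steadier way. None of the 27 probe sets above background had an SD above 0.5, and the list deviated by -0.17 in pig 2 and 0.27 in pig 6. COL1A1 read 11.57, 11.43, 11.94, 11.78, 12.09 and 12.16 in pigs 1 to 6. SFRP2, a secreted modulator of Wnt signals made by fibroblasts and outside the list, had the larger spread: it read 8.37 in pig 5 and 8.31 in pig 6 but 6.34 to 7.34 in the others, and its further probe set gave 7.62 and 7.68 against 6.25 to 6.67. Both probe sets thus set pigs 5 and 6 apart.

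At the other end, the 20 probe sets with the smallest SD lay between 0.017 and 0.035. COX1, GAPDH and NEB were among the brightest of all probe sets. The rest had lower signal, from 5.01 to 8.02, and no shared function: among them were HTT, huntingtin, at 5.73 ± 0.018, POLE3, a histone-fold subunit of DNA polymerase, at 6.10 ± 0.029, SUZ12, of the Polycomb complex, at 6.60 ± 0.032, TAF3, of the general transcription machinery, at 5.91 ± 0.033, and LARP4B, an RNA-binding protein, at 7.34 ± 0.035. The next probe set after these 20 also had 0.035, and the next after the 20 with the largest SD had 0.785, against 0.788 for OAS2 as the last of them.

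The same probe sets were then read in the pigs on insect meal, in which neither ranking had been made, with the SD taken within each group and no means compared. An SD above 0.5 was found for 216 (2.88%) of the 7490 probe sets in group IM5 and for 239 (3.19%) in group IM10, and the median SDs were 0.164 and 0.181. Of the 20 with the largest SD in the control pigs, 16 exceeded 0.5 in group IM5, 17 in group IM10 and 15 in both. The SD was lower than in the control pigs in 13 and 15 of them, which had been picked as extremes. Of the 105, 54 exceeded 0.5 in group IM5, 68 in group IM10 and 45 in both.

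The slow-fibre list kept its spread, with 13 of 13 probe sets above 0.5 in group IM5 and 11 of 13 among the IM10 pigs. Its range over the pigs was 2.43 and 1.90. Its SDs in groups IM5 and IM10 were 0.97 and 1.09 for MYL3, and 1.83 to 1.87 and 1.05 to 1.09 for the MYL6B probe sets. CISH varied as much as in the control pigs or more, with SDs of 1.39 and 1.55. ERAP1 (0.40 and 0.40) and RCAN1 (0.20 and 0.30) did not, so that their large spread was found in the control pigs and not in either other group. PSAT1 had 0.30 and 0.51. The 20 probe sets of smallest SD had been picked as extremes too, a choice that by itself favours a larger SD in any other pigs. All 20 had a larger SD in each of the other groups, and 8 in either group were among the 10% of probe sets with the smallest SD there. HTT, with 0.018 in the control pigs, had 0.14 and 0.13.

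**Figure D5:**
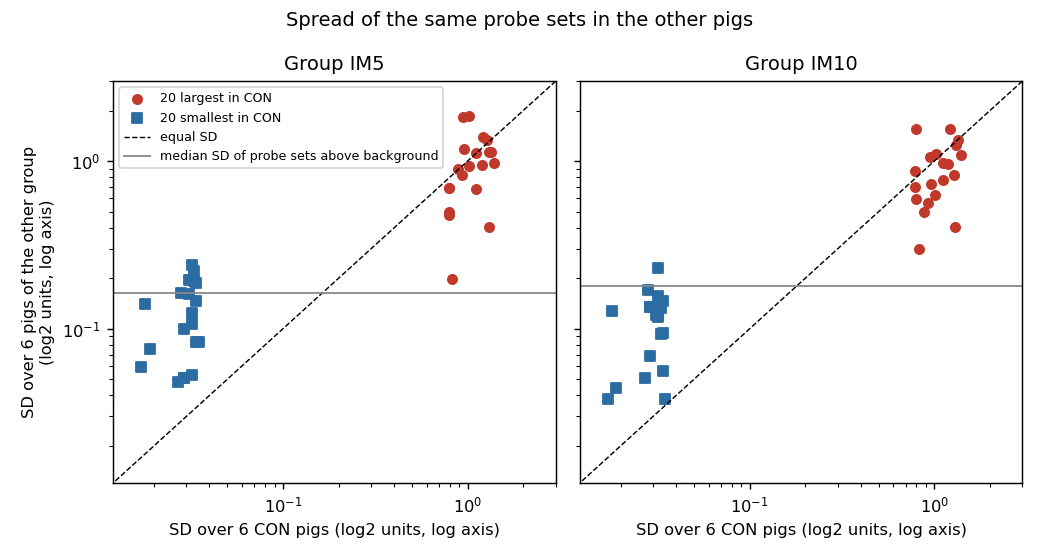
SD over the 6 control pigs (horizontal axis) against the SD over the 6 pigs of group IM5 (left) and group IM10 (right), both in log2 units on log axes, for the 20 probe sets with the largest (red circles) and the 20 with the smallest (blue squares) SD in the control pigs. The dashed line marks equal SD and the grey line the median SD of the probe sets above background, 0.164 and 0.181. All blue squares, which were picked for their small SD in the control pigs, lie above the dashed line. Of the red circles, 16 and 17 lie above 0.5.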

How the data were processed

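RNA of gastrocnemius aliquots of about 30 mg was hybridized to Affymetrix Porcine Gene Sense Target arrays, 1 per pig. The authors deposited log2 signals, made with RMA in Affymetrix Expression Console (version not given in the sources used here) and rounded to 2 decimals. They were used as deposited. Gene names came from the array's annotation, in which a name repeated for the same probe set counted as 1. Of the 13327 names, 12874 were found among current gene records, with 0 symbols to update. Identical values on all arrays were found for 471 probe sets.

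Means and SDs over the 6 pigs of group CON were ranked, and groups were not tested against each other. Outlying pigs were sought with Dixon's test. Spread was ranked above the background level, the 90th percentile of the genes of other organs. Of 37 gene lists, that of Y-linked genes and XIST had 0 kept probe sets. For each of the others, the median deviation of each pig was taken over members above background, which was 1 probe set for red blood cells. Named were the 20 probe sets with the highest mean, largest SD and smallest SD, up to 4 members of each list by mean and 3 by SD, and any member needed to account for a count. Probe sets named for sharing a pattern of pigs, or as members of pairs, were chosen after their values were seen. The members and lists were chosen with earlier results of these data known. Each group of the study was kept in 3 pens, 2 with 3 pigs and 1 with 4, and the pen of each arrayed pig was not given. The number of arrays limits the precision, and pigs of 1 group are separate animals. Alternatives were another quantile normalization, median centring, the median absolute deviation, the SD relative to 20 bins of level, leaving out the dimmest 30%, no filter, 1 probe set per gene name and leaving out each pig. Python 3.11.15, numpy 2.4.6, pandas 2.3.3 and matplotlib 3.10.9 were used.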

Additional observations from a re-analysis of the deposited data

Results flagged for a closer look

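In 271 groups of 6 control pigs (named probe sets and gene lists), the highest or lowest pig was set against the nearest other pig, and its gap was divided by the whole range. This share passed the 95% critical value of Dixon's test in 18 groups, where chance flags about 1 in 20, or 13.6. Pig 1 was the lowest for RPS16 (share 0.782, log2 value 6.79), EIF1 (0.632), TPT1 (0.655), ND2 (0.726, log2 value 9.05) and COX2 (0.692, log2 value 12.42). It was also the lowest for the list of mitochondrially encoded genes (0.758, deviation -0.083) and that of ribosomal proteins (0.63, deviation -0.181), and the highest for ATP5B (0.639) and HOXD3 (0.672). Pig 6 was the lowest for EIF4G2 (0.846), PSMD11 (0.634) and NQO1 (0.752, log2 value 5.97), and the highest for CD3E (0.694, log2 value 5.83). Pig 3 was the lowest for UQCRB (0.63) and TXNIP (0.649), pig 4 for CENPF (0.649) and pig 2 for WDR3 (0.75). Pig 2 was the highest for the fasting and feeding list (0.63, deviation 0.202).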

How the results depend on the processing

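The 20 brightest probe sets were the same 20 under each of the 10 alternatives run, and 15 to 20 of the 20 with the largest SD were kept under each of 13. The ranking of the smallest SDs was not stable: of its 20 probe sets, 9 were kept after another quantile normalization, 3 after centring each array on its median, 1 with the median absolute deviation and 5 to 10 when a pig was left out. The cause was not tested. The count of SDs above 0.5, 105, was 188 with no filter on level, since more probe sets then enter, and 86 to 126 without each pig in turn. The range of the slow-fibre list, 2.33, was 1.67 to 2.41 without each pig. The counts of 16 and 17 in the other pigs were 16 to 18 and 14 to 18 with each of those pigs left out; leaving out pigs for these counts and for the gene lists was chosen after seeing the data. Means of all 236 named probe sets moved by less than their SD, and SDs moved by more in 16 with centring, 10 with quantile normalization and 80 of 1416 cases with a pig left out. No paired analysis was possible because only 1 group was described. Dim probe sets, probe affinity and the unknown portion of muscle limit what the values show.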
